A study of Rattus norvegicus with 18 samples.

Results

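Cubn, Aqp1 and Hao2 are 3 genes of the kidney proximal tubule, each represented by 1 cDNA clone among the 1483 genes that the array's annotation names. They were chosen by symbol and function, with earlier results of these data known. Each clone was spotted in duplicate. Of its 24 spots on the ARF-sham arrays, Cubn (gene ID 80848) had a value in 23, Aqp1 (gene ID 25240) in 19 and Hao2 (gene ID 84029) in 20. The study compared sham-operated rats with rats whose kidneys underwent 52 min of ischemia and then reperfusion, with 35 days of recovery, a group its labels call ARF. Total RNA of the whole kidney came from 6 sham and 6 ARF rats, joined in pairs A to F. Every pair has 2 arrays, between which Cy3 and Cy5 trade places, and 6 further arrays set sham rats against each other, 18 arrays in all. The labels used here give no strain, sex or age for either group.

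In the proximal tubule, filtered proteins and vitamin carriers are taken back from the urine by cubilin, the product of Cubn, a large peripheral receptor that has no membrane anchor of its own and is carried into the cell with megalin and amnionless. Aquaporin 1, the product of Aqp1, is the constitutively open water channel of the proximal tubule and the thin descending limb, and it is also made by the endothelium of the descending vasa recta and by red blood cells. Hao2 encodes a hydroxyacid oxidase that oxidises long-chain 2-hydroxy acids in peroxisomes, organelles that are abundant in the proximal tubule. Measured in whole-kidney RNA, fewer proximal tubule cells and less RNA per cell cannot be told apart.

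The sequence before each gene's start is shown because the 3 genes were read side by side and their starts differ in composition. These are the 250 bases upstream of the start in the RefSeq annotation of GRCr8, 5′ to 3′ on the gene's strand, with any TATAAA or GGGCGG match, on either strand, in capitals.
Cubn: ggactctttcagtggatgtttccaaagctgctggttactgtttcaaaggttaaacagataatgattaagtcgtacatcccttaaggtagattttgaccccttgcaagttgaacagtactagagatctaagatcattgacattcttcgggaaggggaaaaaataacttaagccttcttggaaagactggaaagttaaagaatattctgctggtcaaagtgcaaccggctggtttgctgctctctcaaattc
Aqp1: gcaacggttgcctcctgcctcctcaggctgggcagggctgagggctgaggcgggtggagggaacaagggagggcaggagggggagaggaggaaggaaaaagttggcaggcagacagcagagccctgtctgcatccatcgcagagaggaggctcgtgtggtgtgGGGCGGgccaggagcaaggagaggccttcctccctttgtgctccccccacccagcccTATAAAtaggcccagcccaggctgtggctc
Hao2: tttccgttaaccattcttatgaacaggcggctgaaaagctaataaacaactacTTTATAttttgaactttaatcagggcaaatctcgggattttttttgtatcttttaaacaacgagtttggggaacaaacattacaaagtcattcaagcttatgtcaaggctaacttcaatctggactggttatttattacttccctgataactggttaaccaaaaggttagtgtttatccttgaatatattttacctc
The Cubn window lies at chr17:81501695-81501944 on the minus strand, the Aqp1 window at chr4:85812534-85812783 on the plus strand and the Hao2 window at chr2:188913134-188913383 on the minus strand. The Hao2 start in this table lies 8434 bases inside the gene's outer end, so it belongs to an inner start of that gene. G and C made up 65.2% of the Aqp1 window, 40% of the Cubn window and 33.2% of the Hao2 window. The Aqp1 window held TATAAA from position -30 and one GGGCGG, and the Hao2 window held TATAAA on its other strand from position -197. No letters of these 2 motifs were found in the Cubn window, and neither GTTAAT, the core of the HNF1 site, nor CAAAGTCCA, a form of the HNF4 site, was found in any of the 3 windows. Over 33469 rat promoter windows of the same length, searched on both strands, TATAAA was present in 12.9%, GGGCGG in 30.5%, GTTAAT in 6.45% and CAAAGTCCA in 0.338%. None of these 4 motifs overlapped another in the 3 windows.

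The values are the authors' normalized log ratios. Their log base and their direction are not given in the sources used here. They are read here as channel 2 over channel 1 on the arrays with sham in Cy3, so that a value below 0 means a lower signal in the ARF kidney. With the opposite convention every sign below turns. Each ARF-sham array held 1586 to 2786 values over 4608 spots and each sham-sham array held 914 to 2232, so that many clones were measured on part of the arrays. Of 2304 clones, 947 had both arrays in at least 4 pairs and were tested. Their median log ratio was 0.015, and 435 (45.9%) lay below 0. By limma with Benjamini-Hochberg adjustment over the 947 clones, 9 (0.95%) passed an adjusted p of 0.05, 6 of them lower in ARF and 3 higher, and none of these was Cubn, Aqp1 or Hao2.

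Cubn had a lower log ratio in the ARF kidney in 5 of 6 pairs, by a mean of -0.22 ± 0.20 (SD, n = 6 pairs). Its values were -0.46 in pair A, -0.095 in pair B, 0.055 in pair C, -0.18 in pair D, -0.42 in pair E and -0.21 in pair F. Pairs A and E were the lowest, and pair C was the single pair above 0. The 95% interval of the mean ran from -0.38 to -0.054. In limma the unadjusted p was 0.0144 and the adjusted p 0.195, so Cubn did not pass over all clones, although its mean was the 41st lowest of the 947. An unadjusted p under 0.05 with a value below 0 was reached by 74 clones (7.81%). If the log base was 2, the mean equals a signal 1.16-fold lower in ARF, if it was e, 1.24-fold, and if it was 10, 1.66-fold.

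The 12 arrays of Cubn show how far the pair values rest on both dye orientations. With sham in Cy3 the log ratios were -0.354, 0.094, 0.117, -0.178, -0.430 and -0.094 in pairs A to F, a mean of -0.14. With sham in Cy5 they were -0.574, -0.285, -0.0075, -0.182, -0.409 and -0.324, a mean of -0.30. All 6 arrays of the second orientation lay below 0, and those of pairs B and C lay above 0 in the first. On the 11 arrays where both spots had a value, the spots differed with an SD of 0.136 and by at most 0.291. These are differences between single spots. A pair value averages the spots of 2 arrays, so they do not measure its error.

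Aqp1, the water channel, lay below 0 in each of the 4 pairs measured on both arrays. Its values were -0.018 in pair A, -0.27 in pair B, -0.33 in pair E and -0.18 in pair F, a mean of -0.20 ± 0.14 (SD, n = 4 pairs). Pair A was close to 0, and pairs B and E were the lowest. Every measured pair lay below 0 for 68 of the 947 clones (7.18%), so this pattern was not rare. The 95% interval ran from -0.38 to -0.019, with an unadjusted p of 0.0339 and an adjusted p of 0.298 in limma, the 54th lowest mean. As a fold, the mean is 1.15 lower in ARF in base 2, 1.22 in base e and 1.58 in base 10. Pairs C and D each had 1 array, at -0.011 with sham in Cy3 and -0.43 with sham in Cy5. With these kept, the mean over 6 pairs was -0.21.

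For Aqp1 the dye orientation moved the value as far as the comparison itself. With sham in Cy3 its log ratios were 0.078, -0.142, -0.011, -0.210 and -0.073 in pairs A, B, C, E and F, a mean of -0.071 ± 0.11 (SD, n = 5 arrays). With sham in Cy5 they were -0.114, -0.396, -0.435, -0.450 and -0.283 in pairs A, B, D, E and F, a mean of -0.335 ± 0.14 (SD, n = 5 arrays). In each of the 4 complete pairs the array with sham in Cy5 was the lower one, and the gap between the arrays, divided by 2, was 0.096, 0.127, 0.120 and 0.105, a dye effect of 0.112 ± 0.0139 (SD, n = 4 pairs). The dye effect had an unadjusted p of 0.0177 and an adjusted p of 0.0744 in limma, and it passed adjusted p 0.05 for 152 of the 947 clones (16.1%). The same quantity was 0.078 ± 0.076 for Cubn (adjusted p = 0.142 in limma, n = 6 pairs) and 0.051 ± 0.16 for Hao2 (adjusted p = 0.547 in limma, n = 5 pairs). It cancels in a pair value that holds both orientations.

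Hao2, the peroxisomal oxidase, had the lowest mean of the 3 genes, -0.37 ± 0.27 (SD, n = 5 pairs). Its log ratios were -0.16 in pair A, -0.0059 in pair C, -0.56 in pair D, -0.50 in pair E and -0.62 in pair F, and pair B had no value. Pairs D, E and F stood well below pairs A and C, and all 5 lay below 0. The 95% interval ran from -0.59 to -0.15, with an unadjusted p of 0.0042 and an adjusted p of 0.117 in limma, the 7th lowest mean of 947. In base 2 the mean is a signal 1.29-fold lower in ARF, in base e 1.45-fold and in base 10 2.35-fold. Without pair C, the pair nearest 0, the mean was -0.46 and the adjusted p 0.0364 in limma (n = 4 pairs). Leaving out another pair with a Hao2 value gave no call, with an adjusted p of 0.135 without A, 0.221 without D, 0.381 without E and 0.542 without F in limma. Without pair B, where Hao2 had no value, its own values and mean were unchanged. The adjusted p of 0.190 in limma then came from the change in the other clones. With the 12 arrays entered singly and the pair as a replicate block, the mean stayed at -0.37 and the adjusted p was 0.0358 in limma, a fit in which 42 clones passed in place of 9. With a dye term added to that block fit, Hao2 had an adjusted p of 0.0737 and did not pass.

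The 2 arrays of a pair lay on opposite sides of 0 for Hao2 in pairs A and C, and they were also far apart in pair E. With sham in Cy3 the log ratios were 0.081, -0.139, -0.521, -0.314 and -0.704 in pairs A, C, D, E and F, a mean of -0.32. With sham in Cy5 they were -0.406, 0.127, -0.605, -0.683 and -0.542, a mean of -0.42. Pairs D, E and F were below -0.3 in both orientations. Duplicate spots of Hao2, present on all 10 arrays, differed with an SD of 0.128 and by at most 0.218.

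**Figure D1:**
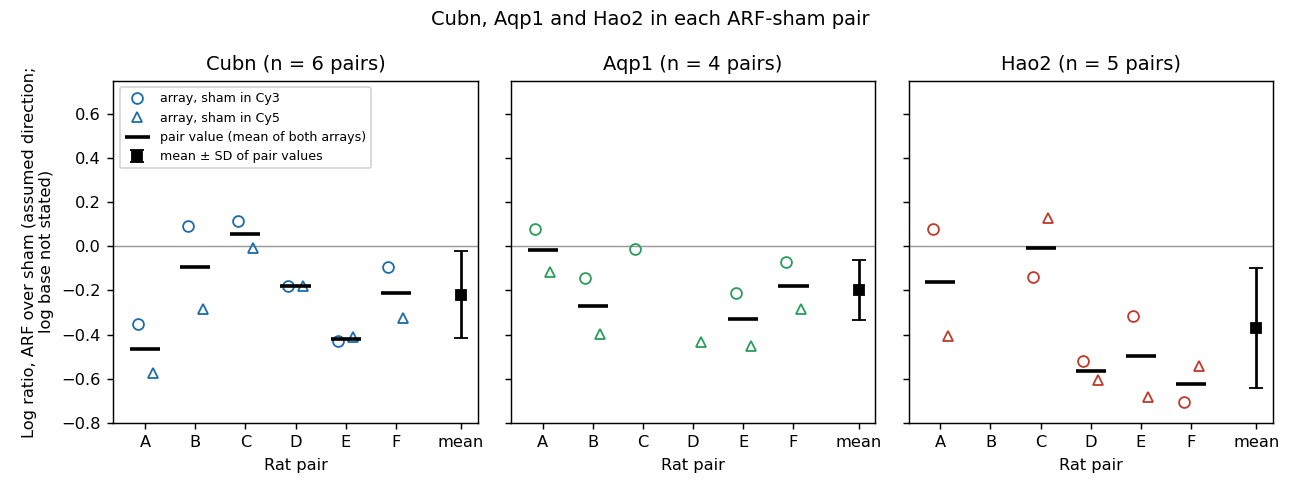
Log ratio of Cubn, Aqp1 and Hao2 (vertical axis; ARF over sham in the assumed direction, log base not given) in rat pairs A to F (horizontal axis), with circles for arrays with sham in Cy3, triangles for arrays with sham in Cy5, bars for pair values and squares for the mean ± SD of pair values. Aqp1 triangles lie below the circles in all 4 complete pairs, and Hao2 is near 0 in pair C and lowest in pair F at -0.62.

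The sham-sham arrays give the spread between control kidneys for Hao2 but hardly for the other two. Hao2 had a value on all 6 of them, -0.064, -0.165, 0.218, 0.075, 0.365 and 0.062. The largest, 0.365 between sham rats C and F, was exceeded in size by the pair values of D, E and F and not by those of A and C. A sham-sham value comes from 1 array with no dye swap, while a pair value averages 2 dye-swapped arrays, so the 2 kinds are not alike. On single ARF-sham arrays, pair E with sham in Cy3 (-0.314) was smaller in size than 0.365. Pair A with sham in Cy5 (-0.406) was larger. Cubn had a value on 2 of these arrays, 0.096 and 0.24, and Aqp1 on 1, where a single spot gave 1.05, farther from 0 than any of its ARF-sham values. These columns had to be realigned to the clone rows by an exchange of row blocks that was chosen after values were seen, so they are given as a description.

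Joined with the pairs, these arrays place Hao2 in 11 rats on one scale, relative to the mean of the 6 sham rats. Read as channel 2 over channel 1, the sham rats lay at 0.195, -0.095, -0.238, -0.024, 0.034 and 0.127 in pairs A to F. The ARF rats lay at 0.033, -0.244, -0.587, -0.464 and -0.496 in pairs A, C, D, E and F. ARF rats D, E and F were below every sham rat, ARF rat C was at about the level of sham rat C, the lowest of the sham rats, and ARF rat A lay within the sham range. With the sham-sham arrays turned, sham rats ranged from -0.195 to 0.238, ARF rat C was at 0.232 and the other ARF rats lay from -0.750 to -0.358, below every sham rat. In a fit of the 12 rat levels without the replicate block, the difference for Hao2 was -0.35 with an adjusted p of 0.338 in limma.

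**Figure D2:**
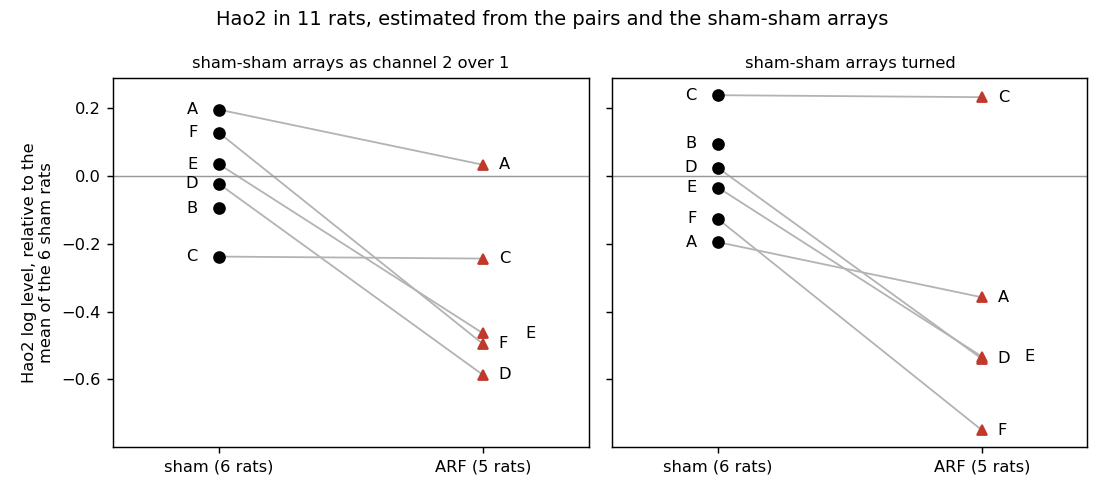
Hao2 log level relative to the mean of the 6 sham rats (vertical axis) for 6 sham rats (circles) and 5 ARF rats (triangles), with lines joining pairs and letters naming them. The left panel reads the sham-sham arrays as channel 2 over channel 1 and the right panel turns them. ARF rats D, E and F lie below all sham rats in both panels, and ARF rat C lies at 0.232 in the right.

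Set against each other within pairs, the 3 genes were not separated by the replicate spread. Hao2 minus Cubn was -0.127 ± 0.29 (SD, n = 5 pairs; 95% interval -0.49 to 0.23), below 0 in 4 of 5 pairs, with an exact two-sided sign-flip p of 0.3125 (adjusted p = 0.469 over the 3 comparisons; the smallest p this design allows is 0.0625). By pair it was 0.30 in A, -0.060 in C, -0.38 in D, -0.079 in E and -0.41 in F. Pair A, where Cubn was at its lowest, went against the others. Hao2 minus Aqp1 was -0.25 ± 0.17 (SD, n = 3 pairs; 95% interval -0.67 to 0.16), below 0 in 3 of 3 pairs, with an exact sign-flip p of 0.25, the smallest possible, and an adjusted p of 0.469. Cubn minus Aqp1 was -0.098 ± 0.26 (SD, n = 4 pairs; 95% interval -0.51 to 0.31), with an exact sign-flip p of 0.625 (smallest possible 0.125) and an adjusted p of 0.625. By pair it was -0.45 in A, 0.17 in B, -0.089 in E and -0.031 in F, and without pair A the mean turned to 0.017. All 3 genes were measured in pairs A, E and F, where Hao2 was the lowest in E and F and Cubn in A.

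**Figure D3:**
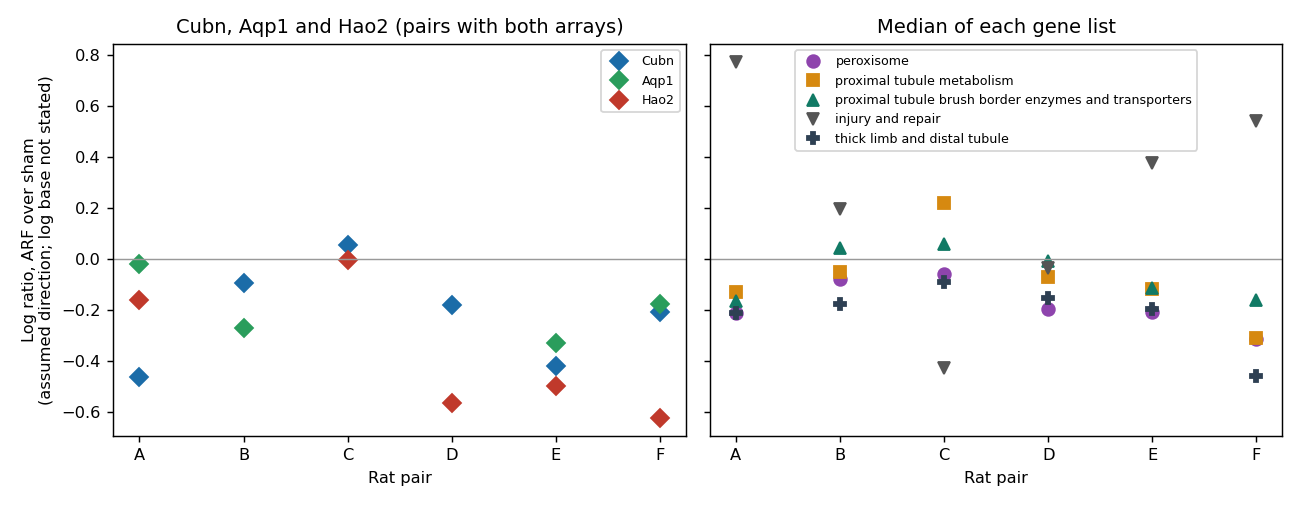
Log ratio by rat pair A to F (horizontal axis; vertical axis ARF over sham in the assumed direction, log base not given), for Cubn, Aqp1 and Hao2 on the left and for the median of 5 gene lists on the right. The peroxisome median and the thick limb and distal tubule median both lie below 0 in all 6 pairs. In pair C Cubn is at 0.055 and the injury and repair median at -0.43, and in pair D Hao2 is at -0.56 and that median at -0.04.

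The other genes of the endocytic receptor system had a median near 0. On the array were 18 of 34 listed genes, and 17 were tested, Cubn among them. Of the 16 others, 10 lay below 0 and 6 above, with a median of -0.014. None passed over all clones, and 2 of the 16, Gc and Ctsl, had an unadjusted p under 0.05 and a value below 0, against 7.81% of all clones tested. Ap2m1, a subunit of the clathrin adaptor, named after its values were seen, had an unadjusted p under 0.05 and a value above 0, 0.12 ± 0.06 (SD; adjusted p = 0.328 in limma). Lrp2, the megalin that carries cubilin into the cell, was named for that role with its values known and had -0.06 ± 0.16 (SD, n = 6 pairs; adjusted p = 0.689 in limma). Dab2, an adaptor on the cytoplasmic tail of megalin, named in the same way, had -0.02 ± 0.18 (SD; adjusted p = 0.868 in limma). The lowest of the list was Gc, the vitamin D-binding protein, which the receptor takes up as cargo, at -0.30 ± 0.38 (SD, n = 6 pairs; adjusted p = 0.285 in limma). Ctsl, a lysosomal protease, had -0.21 ± 0.27 (SD, n = 6 pairs; adjusted p = 0.334 in limma). The median of the 16 changed sign, to 0.0024, when each array was centred on its median, and to 0.013 with sham in Cy3 alone.

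Among 12 listed aquaporins, 4 were on the array and 2 were tested. Aqp3, the basolateral channel of the collecting duct, had 0.05 ± 0.32 (SD; adjusted p = 0.801 in limma). Aqp9 had no value on any ARF-sham array and Aqp5 on 1 of 12. Aqp1 also belongs to the genes of the thin descending limb and medulla, of which 3, Aqp1 among them, were tested. Cryab, a small heat shock protein of the medulla, fell by 0.61 ± 0.32 (SD, n = 6 pairs) on the log scale, below 0 in 6 of 6 pairs (adjusted p = 0.0342 in limma). The call for Cryab ended without pair A (adjusted p = 0.0854 in limma), B (0.0626), E (0.156) or F (0.289). Its size moved with the dye orientation. With sham in Cy3 alone it was -0.37 and not called (adjusted p = 0.0854 in limma), and with sham in Cy5 alone it was -0.85 (adjusted p = 0.00362 in limma). Akr1b1, the aldose reductase that makes sorbitol in the medulla, ranged from -1.03 to 0.89 between pairs, with a mean of 0.15 ± 0.83 (SD, n = 5 pairs; adjusted p = 0.768 in limma).

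The tested peroxisomal genes lay below 0, also with each array centred on its median. With sham in Cy5 alone, 9 of 10 did. Of 49 listed genes 17 were on the array and 7, Hao2 among them, were tested. Their means ran from -0.37 for Hao2 to -0.10, with a median of -0.21. The 6 others all lay below 0, with a median of -0.17, where 45.9% of all clones tested did. None of the 7 passed over all clones. Of the 6 others, 3 had an unadjusted p under 0.05 in limma and a value below 0, against 7.81% of all clones tested. The list was chosen with earlier results of these data known, so this count is a description. Slc27a2, which imports and activates very long-chain fatty acids, had -0.31 ± 0.22 (SD, n = 6 pairs), below 0 in 5 of 6 pairs, with an adjusted p of 0.0979 in limma, 0.0147 with the 12 arrays and the pair as a replicate block and 0.0275 with a dye term added to that block. Amacr, the racemase of branched-chain acyl-CoAs, named after its values were seen, had -0.21 ± 0.14 (SD, n = 6 pairs), below 0 in 6 of 6 pairs (adjusted p = 0.146 in limma). Idh1, which makes NADPH in the cytosol and peroxisomes, ranged between pairs, with 0.35 in pair A and -0.69 in pair D, and its mean was -0.23 ± 0.40 (SD; adjusted p = 0.445 in limma).

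The peroxisome median was -0.21, -0.08, -0.06, -0.19, -0.21 and -0.31 in pairs A to F. It lay below 0 in 6 of 6 pairs and nearest 0 in pair C, as Hao2 did. Without Hao2 it was -0.22, -0.077, -0.070, -0.19, -0.18 and -0.30. The thick limb and distal tubule median also lay below 0 in 6 of 6 pairs and nearest 0 in pair C. It was -0.21, -0.18, -0.09, -0.15, -0.20 and -0.46 in pairs A to F. On the sham-sham arrays the peroxisome median was taken over every listed gene with a value, tested or not. It ran from -0.09 (sham rats D and E, 10 genes) to 0.22 (sham rats B and F, 3 genes). The latter was the value of Hao2 itself. The best known peroxisomal genes could not be tested, since Cat, the catalase, had a value on 2 of 12 ARF-sham arrays, Uox, the urate oxidase, on none and Acaa1a, a thiolase, on none.

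Proximal tubule genes outside these groups lay on both sides of 0. Of 15 tested brush border enzymes and transporters, 11 lay below 0, with a median of -0.066, and none passed. Slc15a2, a peptide transporter, had -0.19 ± 0.19 (SD, n = 6 pairs; adjusted p = 0.252 in limma). Slc22a5, the carnitine transporter, had -0.16 ± 0.28 (SD, n = 5 pairs; adjusted p = 0.499 in limma). Of 22 tested genes of proximal tubule metabolism, 14 lay below 0, with a median of -0.066, and none passed. In limma, 4 of these 22 and 1 of the 15 had an unadjusted p under 0.05 and a value below 0. The share of all clones tested was 7.81%. Spp2 lay below 0 in 4 of 4 pairs, at -0.29 ± 0.14 (SD, n = 4 pairs; adjusted p = 0.137 in limma). Cdo1, a cysteine dioxygenase, had -0.29 ± 0.29 (SD; adjusted p = 0.181 in limma, 0.0464 with the replicate block and 0.0622 with the block and a dye term), and Aadat, an aminotransferase, had -0.26 ± 0.28 (SD; adjusted p = 0.233 in limma). The median over metabolism genes was 0.22 in pair C and -0.31 in pair F, and without pair C it was -0.15, with 19 of 22 below 0. The brush border median was -0.013 on arrays with sham in Cy3 and -0.15 on arrays with sham in Cy5, so its size moved with the dye orientation as that of Aqp1 did.

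Genes of other cells and of injury differed between the same pairs. Of 12 tested injury and repair genes, 11 lay above 0 with a median of 0.25, and S100a4, a calcium-binding protein, rose by 0.70 ± 0.23 (SD, n = 4 pairs; adjusted p = 0.0284 in limma). Their median was 0.77, 0.19, -0.43, -0.04, 0.38 and 0.54 in pairs A to F. It was lowest in pair C, where Cubn was above 0 and Hao2 near 0. Pair D had the next lowest, with Cubn at -0.18 and Hao2 at -0.56. Pair A had the highest, with Cubn at -0.46 and Hao2 at -0.16. Of 12 tested fibroblast and matrix genes, 9 lay above 0 with a median of 0.25, and Col1a1, a fibrillar collagen chain, rose by 0.53 ± 0.21 (SD, n = 4 pairs; adjusted p = 0.0482 in limma). Their pair medians ran from -0.14 in pair C to 0.63 in pair A. Of 6 tested thick limb and distal tubule genes, 4 lay below 0 with a median of -0.27, and Egf, the growth factor made in the distal convoluted tubule and thick limb, fell by 0.34 ± 0.16 (SD, n = 6 pairs; adjusted p = 0.0482 in limma). Their pair medians were -0.09 in pair C and -0.46 in pair F. Of the 6 tested collecting duct genes, 3 lay below 0, with a median of 0.0012. The call for Egf ended without pair A (adjusted p = 0.0858), B (0.142), E (0.201) or F (0.311), by limma. With single arrays kept, the calls for Egf (adjusted p = 0.0807 in limma), S100a4 (0.121) and Col1a1 (0.187) all ended. Egf had a value on all 12 arrays, so its own values and mean were unchanged there. Its adjusted p then came from the change in the other clones. The call for Egf also ended with sham in Cy3 alone (0.114), and that for Col1a1 with sham in Cy3 alone (0.0954) or in Cy5 alone (0.118). Of the alternative settings, 8 of 19 kept the call for Egf, 7 of 12 that for S100a4 and 6 of 13 that for Col1a1. The part of these shifts in the values of Cubn, Aqp1 and Hao2 was not tested. Podocyte and mesangium markers had 1 tested gene. The macrophage and antigen presentation list had 2, RT1-Ba and RT1-Db1, both above 0. Endothelium and red cell markers, the other sources of Aqp1, had none.

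**Figure D4:**
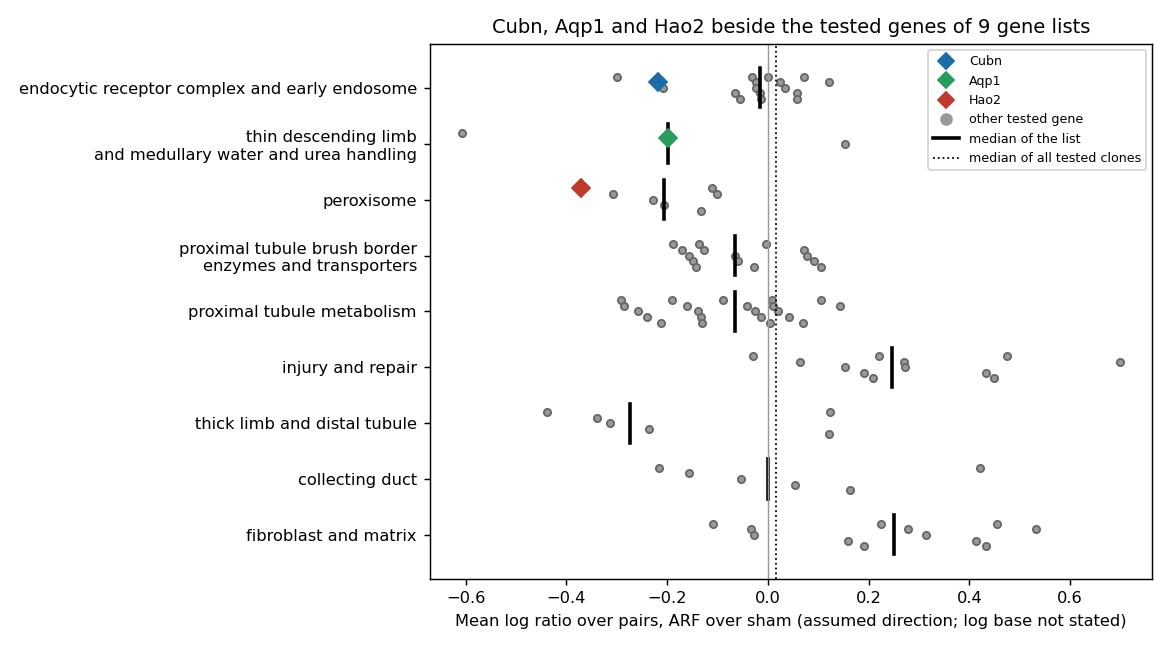
Mean log ratio over pairs (horizontal axis; ARF over sham in the assumed direction, log base not given) for the tested genes of 9 gene lists (rows), with diamonds for Cubn, Aqp1 and Hao2, grey points for other genes, thick bars for list medians and a dotted line for the median of all tested clones, 0.015. All 7 peroxisome genes lie left of 0, and 11 of the 12 injury and repair genes lie right of it.

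The genes whose pair values most resembled those of each gene were found by Pearson's r over the pairs with both arrays, as a description with few points. Nearest to Cubn over 6 pairs, among 419 genes compared, were Amd1 (r = 0.934), Alpl (r = 0.912) and Cd82 (r = 0.895). Alpl encodes the tissue-nonspecific alkaline phosphatase. Its mean over the same pairs was 0.078, above 0, so a like profile did not mean a like direction. Nearest to Hao2 over 5 pairs, among 447 compared, were Cyb5a (r = 0.999), an electron carrier of the endoplasmic reticulum, Ezr (r = 0.985), the linker of brush border membrane and actin, and Aldh1a1 (r = 0.978), a retinaldehyde dehydrogenase. Cyb5a had -0.05 in pair A, 0.05 in pair C, -0.29 in pair D, -0.23 in pair E and -0.32 in pair F, the order of Hao2 with smaller steps. Over its 4 pairs Aqp1 had an r over 0.9 with 59 of 581 genes compared, led by Zfp36l1, Nsfl1c and Spink1l, and so few points barely rank genes. The pairs share their arrays and normalization across all genes.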

How the data were processed

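The 12 ARF-sham arrays and 6 sham-sham arrays were 2-colour cDNA arrays scanned into ImaGene 4.1, per the labels. The authors deposited normalized log ratios, whose log base, numerator and normalization are not given in the sources used here. Of all cells 57.1% were empty, and no value was exactly 0. Signs of both dye orientations already ran the same way in the deposited values. A clone's 2 spots, 1152 rows apart, were averaged per array, then the 2 arrays of a pair. In the sham-sham columns adjacent blocks of 288 rows were exchanged, chosen after values were seen: presence of values then correlated with the other arrays at 0.509 to 0.648, against -0.045 to 0.011 before.

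Clones with at least 4 complete pairs were tested with limma 3.58.1 in R 4.3.3 (intercept model, eBayes, Benjamini-Hochberg). The rat pair is the unit, so the pairing is part of the main design, taken from the labels' pair letters. Pairs are separate rats. The number of complete rat pairs limits the precision. Differences between genes used exact sign-flip tests. No correlation across pairs was tested, since Cubn alone had 6 pairs. The fit was checked on simulated data. Gene names came from the platform annotation (1489 clones with 1 symbol, 32 with several, 783 with none), promoters from RefSeq, where all 3 genes matched. From each list, genes past the threshold and the 3 farthest from 0 were to be named, of which those bearing on the 3 genes are given. Genes and lists were chosen with earlier results of these data known.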

Additional observations from a re-analysis of the deposited data

Results flagged for a closer look

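In 47 groups of 4 to 6 pair values examined, 1 pair stood apart from the rest in 2 of them, and chance alone does so in about 1 group in 20. Atp1b1, the beta subunit of the sodium pump and a brush border and transporter list gene, had 0.42 in pair A against -0.43 to -0.18 in the other 5 pairs. Col4a1, a basement membrane collagen chain, had 0.17 in pair B against 0.53 to 0.58 in the other 3 pairs. Neither was among the values of Cubn, Aqp1 or Hao2.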

How the results depend on the processing

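Cubn, Aqp1 and Hao2 stayed below 0 under every alternative run. Cubn ranged from -0.297 to -0.141 over 18 settings (adjusted p 0.0792 to 0.577 in limma), Aqp1 from -0.335 to -0.071 over 16 (0.0737 to 0.571) and Hao2 from -0.462 to -0.308 over 19 (0.0358 to 0.542). Hao2 alone crossed the threshold, with the 12 arrays and the pair as a replicate block (-0.37, adjusted p 0.0358, but 0.0737 with a dye term added) and without pair C (-0.46, adjusted p 0.0364), its values with a pair left out running from -0.46 to -0.31. The cause was not tested. The exact sign-flip difference Cubn minus Aqp1 ran from -0.19 to 0.017 with a pair left out, above 0 without pair A. The number of clones past the threshold, 9, became 15 with each array centred on its median, 5 with centring by block, 28 with sham in Cy3 alone, 5 with single arrays kept, 17 with both spots required, 4 with at least 3 pairs, 42 with the replicate block, 29 with a dye term added and 2 with 12 rat levels and no replicate block. It was 0 with trended, robust moderation in limma (119 at unadjusted p under 0.05) and 0 with no moderation (129), and 0 to 19 with a pair left out (0 without pair E, 68 unadjusted, and without pair F, 59 unadjusted; 1 without pair B, 4 without A, 18 without D, 19 without C). Among the other named genes the sign turned for Akr1b1 without pair E (-0.031, up to 0.45 with another pair left out), Aqp3 without pair F (-0.015, up to 0.16), Dab2 without pair D (0.013, down to -0.076) and with sham in Cy3 alone (0.0045), and, with sham in Cy5 alone, Alpl (-0.0038) and Thy1, a list gene (0.015). Arrays of a pair correlated at 0.288 in the block fit and at 0.506 with the dye term. Treating exact 0 values as missing was not run, since there were none. Aqp1 could not be tested with both spots, 6 pairs, 12 rat levels or without pair A, B, E or F, Cubn not with 12 rat levels and Hao2 not with 6 pairs.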
